A study of Oryza sativa with 3 samples.

Results

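Ribosomal protein genes of rice (Oryza sativa) were followed across 3 tissues: those of the cytosolic ribosome, built from a 40S and a 60S subunit, and those of the organellar ribosomes, built from a 30S and a 50S subunit. A gene was a member when its deposited description read 40S, 60S, 30S or 50S ribosomal protein and its row carried a single gene identifier. By this rule 195 genes were found in at least 1 library, 116 cytosolic (53 of the 40S and 63 of the 60S subunit) and 79 organellar (37 of the 30S and 42 of the 50S subunit). The comparison between tissues used 123 of them, 91 cytosolic and 32 organellar, out of 20097 genes that carried a single identifier in every library and reached 1 FPKM in at least 1 tissue. The series holds 1 paired-end library of total RNA from each of node (nodes I and II), stem and leaf blade. All plants grew at 29 °C under 12 h of light at about 80000 lux and 12 h of darkness, in a greenhouse or a chamber, and the labels name no treatment, genotype or age. FPKM is the number of fragments scaled to transcript length and library size, and it is the authors' deposited value with an interval for each gene.

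Ribosomes translate messenger RNA into protein, and each subunit is a complex of ribosomal RNA with many small, mostly basic proteins. In plants the cytosolic ribosome makes most cell protein, and its proteins are encoded in the nucleus, usually by several near-identical gene copies each. Chloroplasts and mitochondria carry ribosomes of bacterial type. Some chloroplast ribosomal proteins are encoded in the plastid genome, while others are encoded in the nucleus, made in the cytosol and imported. Chloroplast ribosomes translate the plastid-encoded parts of the photosynthetic apparatus. In grasses the node is the stem segment that bears a leaf and joins its veins to those of the stem.

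With 1 library per tissue there was no replicate spread and no test, so each difference compares single libraries. The deposited intervals hold no spread between replicates, and whether they cover more than counting error is not given. The implied number of fragments, read from the interval bounds, was 39960000 in node, 43160000 in stem and 39880000 in leaf blade. Among tissue markers the silicon transporter gene LSI2 had 110.5 FPKM in node, 4.40 in stem and 0.323 in leaf blade, and 14 chlorophyll a/b-binding protein genes summed to 1048, 6227 and 14859 FPKM. The other markers set node and stem apart from leaf blade, but not all separated node from stem. LSI3, HMA2 and OSH1 were highest in node, and CESA7 and CESA9, chosen for stem, were highest in stem. OSH15, chosen for node, had 145 FPKM in node, 411 in stem and 0.284 in leaf blade. CESA4, chosen for stem, had 21.1, 18.0 and 0.205 FPKM. Green tissue markers were present in all 3. In bulk tissue, fewer cells of a type and less RNA per cell cannot be told apart.

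Not every member could be followed. Of the 116 cytosolic genes, 94 had a row of their own in all 3 libraries, and 22 were merged with a neighbour in some library. Of the 94, 3 stayed under 1 FPKM: a S23 copy (LOC_Os10g20910) and a S7 copy (LOC_Os02g21900), both listed at 0 in every library, and a gene described as a mitochondrial 60S L5 (LOC_Os09g08890), at 0.498 FPKM in node, 0.451 in stem and 0.376 in leaf blade. Of the 79 organellar genes, 50 had a row in all 3 libraries and 32 passed the limit of 1 FPKM. The values nearest that limit were a highest level of 0.719 FPKM (LOC_Os01g57956) and 0.831 FPKM (LOC_Os05g22724) outside it, and 1.16 FPKM (LOC_Os10g21342) and 1.18 FPKM (LOC_Os08g15276) inside it.

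The organellar genes carry descriptions of several kinds, and these sets differed in level. A set of 56 genes, 13 of them compared, is described only as chloroplast ribosomal proteins, and the names are those of proteins that the plastid genome of grasses encodes, although the rows lie on nuclear chromosomes. These are called plain chloroplast loci here. The other 19 organellar genes compared comprise 6 chloroplast precursors (of 8 by the rule), 3 plastid-specific ribosomal proteins (of 3) and 10 with no organelle stated (of 12), which could serve chloroplasts or mitochondria. All 13 plain chloroplast loci compared reached 1 FPKM in leaf blade, but only 3 in node and 7 in stem, so counts over them are given as description and kept apart from the other 19.

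The 91 cytosolic genes were among the most abundant genes of every tissue. Their summed level was 32017 FPKM in node, 27046 in stem and 34107 in leaf blade. This made up 3.72%, 3.48% and 4.22% of the FPKM of all single-identifier genes. The median gene stood at 323 FPKM in node, 254 in stem and 321 in leaf blade, and 79, 76 and 78 of the 91 reached 100 FPKM. Among the 500 most abundant genes, 61 in node, 48 in stem and 67 in leaf blade were cytosolic members. Both subunits had similar levels, with a median of 343 FPKM in node, 280.1 in stem and 338 in leaf blade for the 42 genes of the 40S subunit, and 306, 241 and 309.7 FPKM for the 49 genes of the 60S subunit. At these levels the deposited interval of the median gene reached 2.43% of its value to either side in node, 2.50% in stem and 2.26% in leaf blade.

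Organellar genes were far lower and differed more between tissues. The 32 genes compared summed to 495 FPKM in node, 956 in stem and 1206 in leaf blade, or 0.0575%, 0.123% and 0.149% of single-identifier FPKM. Nearly all of it came from the 19 other organellar genes, with 486, 918 and 1109 FPKM and medians of 19.0, 35.8 and 44.0 FPKM. The cytosolic sum was 64.6 times the organellar sum in node, against 28.3 times in stem and 28.3 times in leaf blade. No organellar gene in node, 1 in stem and 1 in leaf blade was among the 500 most abundant. The interval of the median gene was wider here, 8.07% in node, 5.45% in stem and 5.13% in leaf blade for the 19 genes, and 161%, 70.4% and 54.7% for the 13 plain chloroplast loci.

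**Figure D1:**
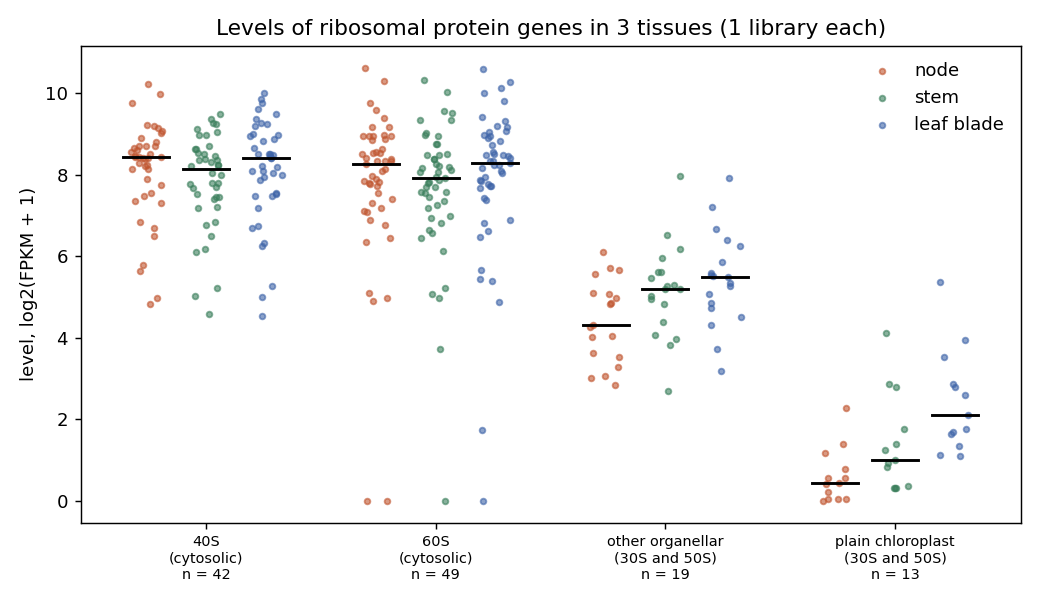
Levels of the 123 genes compared, as log2(FPKM + 1) on the vertical axis, by subunit or description and by tissue; each point is a gene in 1 library and each black line is the group's median. The 40S and 60S genes lie at similar heights in node, stem and leaf blade, while the medians of both organellar groups are lowest in node and highest in leaf blade.

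Between tissues, the cytosolic genes kept closely together. The median log2 difference, on the log2(FPKM + 1) scale used for every difference, was -0.10 in node versus leaf blade, -0.29 in stem versus leaf blade and 0.19 for node versus stem. Over all genes compared the same medians were 0.13, -0.02 and 0.16. The middle 50% of cytosolic genes spanned 0.57, 0.54 and 0.42 log2 units, against 1.66, 1.26 and 1.06 for all genes. The 40S and 60S medians were close in each comparison: -0.11 and -0.08 in node versus leaf blade, -0.28 and -0.29 in stem versus leaf blade, and 0.22 and 0.18 in node versus stem. The comparisons share libraries and are not independent of each other.

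Few cytosolic genes differed by 2-fold or more. In node versus leaf blade 2 of 91 were higher in node and 3 were lower, while 26.5% and 17.1% of all genes compared were. In stem versus leaf blade 2 were higher in stem and 5 lower, with 16.7% and 18.0% of all genes past the same limits. In node versus stem 2 were higher in node and 1 was lower, with 19.4% and 8.99% of all genes. Thus 94.5%, 92.3% and 96.7% of cytosolic genes lay within 2-fold, against 56.4%, 65.2% and 71.6% of all genes. At 4-fold the cytosolic genes numbered 0, 1 and 0 higher, with 12.3%, 6.43% and 6.82% of all genes, and 0, 0 and 1 lower, with 7.29%, 6.52% and 2.30%; the gene in question, L13a, is listed at 0 in node and leaf blade. By shares of implied fragments 0 of 91 were 2-fold higher and 10 lower in node versus leaf blade, so these counts depend on the measure. How far their high level and narrow intervals account for this was not tested.

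Within these small differences stem was most often the lowest tissue. It was the lowest for 60 of the 91 genes, node for 16 and leaf blade for 15. Leaf blade was the highest for 50, node for 32 and stem for 9. In node versus stem 70 of them were above 0 and 20 below, beside 11987 above and 7868 below of all 20097 genes. With the libraries rescaled to a median difference of 0 over all genes, the cytosolic median there was 0.028, against 0.19 as deposited. The order of genes by level was alike in each pair of tissues, with a Spearman coefficient across the 91 genes of 0.89 for node and leaf blade, 0.91 for stem and leaf blade and 0.94 for node and stem, given as a description because genes of 1 library share its depth and processing.

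**Figure D2:**
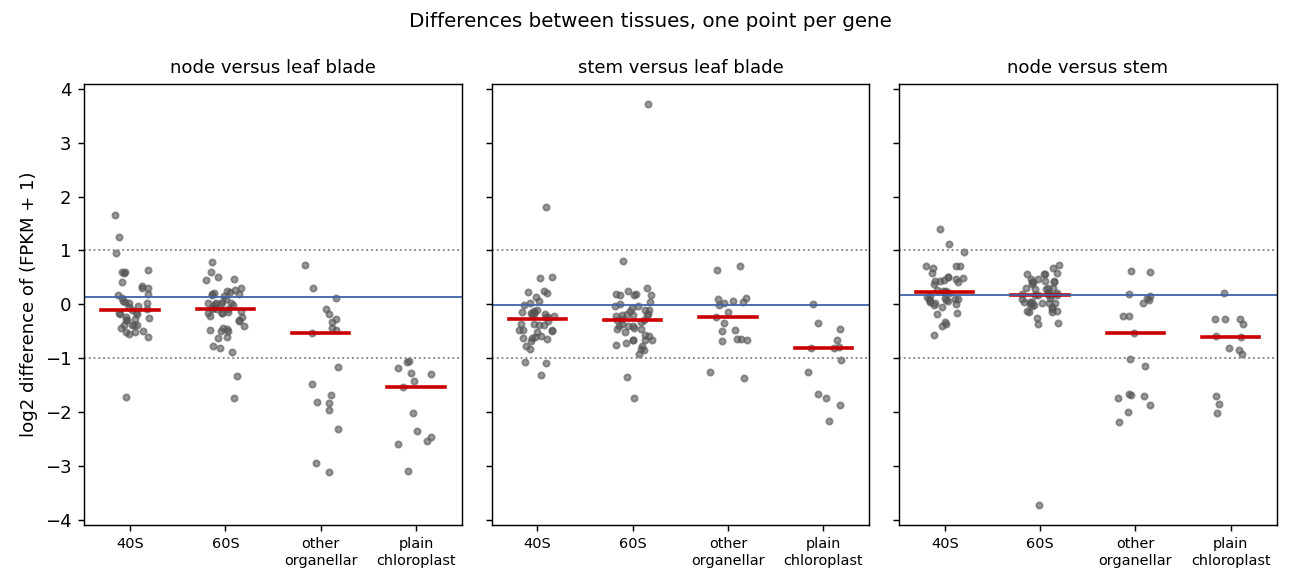
Log2 differences of (FPKM + 1) between tissues, 1 point per gene and 1 panel per comparison; red bars are group medians, the blue line is the median of all 20097 genes compared, and dotted lines mark 2-fold. The 40S and 60S genes lie mostly between the dotted lines in all 3 panels, and both organellar groups reach further down where node is compared.

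Among the 40S proteins, S6, which the TOR pathway phosphorylates through S6 kinase, was measured from 2 copies. LOC_Os03g27260 had 295 FPKM in node, 299 in stem and 261 in leaf blade, and LOC_Os07g42950 had 404, 364 and 398 FPKM. S27a, which is made as a fusion with ubiquitin, also had 2 copies: LOC_Os01g22490 had 594 FPKM in node, 416 in stem and 716 in leaf blade, and LOC_Os05g06770 had 535, 498 and 654 FPKM. None of these copies differed by 2-fold in any comparison, and both S27a copies were lowest in stem.

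S28 and S26 were among the most abundant 40S genes. S28, a protein of the subunit's head (LOC_Os10g27174, chromosome 10, 14323500 to 14324869), had 997 FPKM in node, 714 in stem and 1022 in leaf blade. S26, which lies where messenger RNA leaves the small subunit (LOC_Os05g39960, chromosome 5, 23483078 to 23485781), had 1189 FPKM in node, with an interval of 1155 to 1222, against 606 in stem and 782 in leaf blade. Its log2 difference was 0.97 in node versus stem and 0.60 in node versus leaf blade, under the 2-fold limit. The implied fragments of S26 were nevertheless fewest in node, so its direction is uncertain. S21 (LOC_Os03g46490) was at the low end, with 54.5 FPKM in node, 70.9 in stem and 78.5 in leaf blade.

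A few 40S copies passed 2-fold. S29, a small zinc-binding protein, had a copy (LOC_Os11g41610, chromosome 11, 24973644 to 24975441) with 279 FPKM in node, 371 in stem and 928 in leaf blade, so leaf blade was the highest. Compared with leaf blade it stood at -1.73 in node and -1.32 in stem. This locus overlaps another row, and its share of implied fragments differed by -0.10 on the log2 scale in node versus leaf blade. S10, a protein of the 40S head (LOC_Os02g34460), had 102 FPKM in node, 67.8 in stem and 144 in leaf blade, a difference of -1.07 in stem versus leaf blade. Another S10 copy, LOC_Os01g73160, had 113 FPKM in node, 108 in stem and 75.2 in leaf blade, so that these copies were highest in different tissues.

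For other 40S copies FPKM and implied fragments gave opposite directions. S17 (LOC_Os10g27190, chromosome 10, 14330668 to 14331558) had 858 FPKM in node, 325 in stem and 359 in leaf blade. Node was above leaf blade by 1.25 and above stem by 1.40 log2 units. Its implied fragments were nevertheless fewest in node, 5400 against 10688 in stem and 11282 in leaf blade. S27, a zinc-binding protein, had a copy (LOC_Os04g27860, chromosome 4, 16457948 to 16459348) with 587 FPKM in node, 655 in stem and 186 in leaf blade. Node was above leaf blade by 1.65 and stem above it by 1.81 log2 units, while the implied fragments were 766 in node, 1246 in stem and 5953 in leaf blade. S17 and this S27 copy are counted by FPKM above, but their direction is uncertain, and the cause of the disagreement was not tested.

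S3a, a protein of the 40S platform, had 3 copies. LOC_Os03g10340 had 443 FPKM in node, 203 in stem and 359.5 in leaf blade, which made it the second gene past 2-fold in node versus stem, at 1.13, and it overlaps another row. LOC_Os02g18550 had 340.5 FPKM in node, 208 in stem and 175 in leaf blade. LOC_Os12g21798 had 186 FPKM in node, 113.5 in stem and 243 in leaf blade, a difference of -1.09 in stem versus leaf blade that was 0.18 by shares of implied fragments. All 3 copies were lower in stem than in node by FPKM. By shares of implied fragments this held for LOC_Os03g10340, at 0.92 in node versus stem. LOC_Os02g18550 and LOC_Os12g21798 had more implied fragments in stem than in node.

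In the 60S subunit the most abundant gene was that of L36 (LOC_Os05g38520, chromosome 5, 22596417 to 22598484), with 1574 FPKM in node, 1278 in stem and 1541 in leaf blade. L39, a short protein that lines the exit tunnel of the nascent chain, followed with 2 copies: LOC_Os06g08320 had 1255 FPKM in node, 1037 in stem and 1116 in leaf blade, and LOC_Os02g55370 had 665, 648 and 1229 FPKM. The second L39 copy overlaps another row. L37a, which holds a zinc-ribbon fold (LOC_Os01g48770), had 867 FPKM in node, 641 in stem and 1015 in leaf blade. All 4 genes were lowest in stem.

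L29 gave the largest 60S difference among genes above 0 in all 3 tissues. Its copy LOC_Os05g28750 (chromosome 5, 16861510 to 16863467) had 210.0 FPKM in node, 208 in stem and 529 in leaf blade, or -1.33 for node and -1.35 for stem against leaf blade on the log2 scale. By shares of implied fragments these were -0.03 and -1.16, so the difference of node from leaf blade was present in FPKM and nearly absent in fragments. L21 (LOC_Os10g32820) had 504 FPKM in node, 491 in stem and 890.0 in leaf blade, at -0.82 and -0.86, short of 2-fold. L7 (LOC_Os08g42920) had 85.8 FPKM in node, 86.8 in stem and 49.3 in leaf blade, at 0.79 and 0.80. Implied fragments of this L7 copy ran the other way, with the most in leaf blade, and those of L21 were most in stem. The direction of this L7 copy is thus uncertain, as is that of L21 in stem versus leaf blade.

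The remaining 60S genes past 2-fold were low and listed at 0 somewhere. L13a (LOC_Os03g54860), which overlaps another row, had 12.2 FPKM in stem and is listed at 0 in node and leaf blade. An L44 copy (LOC_Os07g33915), named after its values were seen, had 2.33 FPKM in leaf blade and is listed at 0 in node and stem. A value of 0 can be a failed estimate in such files, so no fold is given for either. Another L44 copy (LOC_Os07g26740) had 134 FPKM in node, 99.6 in stem and 87.9 in leaf blade. Proteins L3, L10, L11, L24 and L40 of the 60S subunit had no member by the rule, and L5 had only the gene described as mitochondrial.

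Because most cytosolic proteins have several gene copies, levels were also summed by protein. Of the 91 genes, 88 belong to 45 proteins with a number and 3 carry none. Of the 45, 15 had 1 copy compared, 19 had 2, 10 had 3 and 1 (L18a) had 5. The median protein stood at 656 FPKM in node, 514 in stem and 666 in leaf blade. After summing, 1 protein differed by 2-fold in node versus leaf blade (S17, 1.25), 2 in stem versus leaf blade (L29 at -1.01 and L13a) and 2 in node versus stem (S17 at 1.40 and L13a). For S17 only the copy LOC_Os10g27190 was compared, and 1 further S17 gene without its own row in all libraries is left out of the sum. By shares of implied fragments LOC_Os10g27190 stood at -1.06 and -0.87 in these comparisons, so its direction remains uncertain. S29 came to 1228 FPKM in node, 1251 in stem and 2289 in leaf blade, or -0.90 in node versus leaf blade. L39 was the most abundant protein, with 1920.3 FPKM in node, 1684 in stem and 2345 in leaf blade. Proteins for which some copy was merged in a library are undercounted in these sums.

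**Figure D3:**
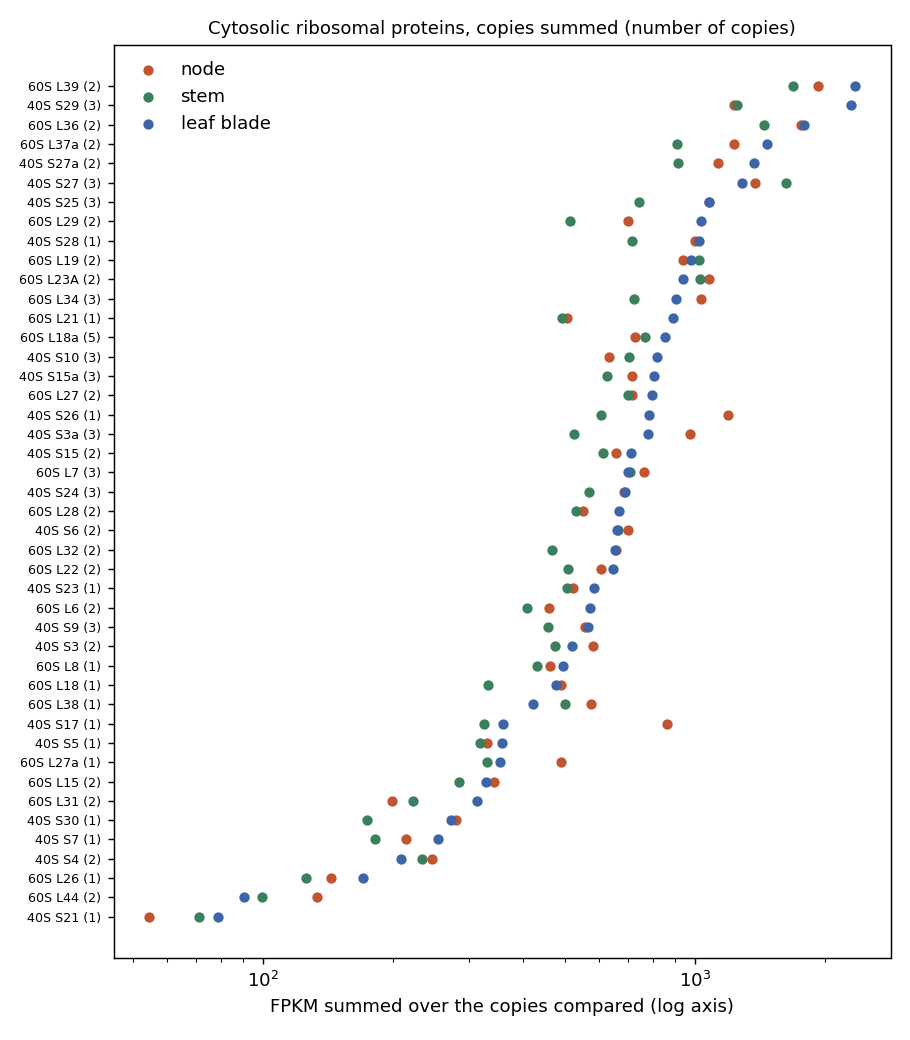
FPKM summed over the copies compared of each cytosolic protein (log axis), with the number of copies in brackets; each point is 1 library. L13a, listed at 0 in node and leaf blade, is left out. The 3 points of most proteins lie close together, and S17, S26 and S29 are among those with a wider spread. For S17 and S26 the direction is uncertain, because their implied fragments were fewest in node.

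Within proteins, the division among copies was mostly alike in the tissues. All 30 proteins with several copies reached 50 FPKM in every tissue, and in 21 of them the same copy led in node, stem and leaf blade. The largest difference of any copy's share between tissues was under 10 percentage points in 18 proteins, with a median of 7.93 points. The 8 proteins with the largest differences were S27, L29, S29, L39, S3a, L7, S4 and S15. Near-identical copies can take each other's fragments, so these divisions depend on how the authors assigned them, which was not stated in the labels.

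These shares were also taken of the copies' implied fragments, which was added once the FPKM values were known. Fragments are not scaled to length, so only their difference between tissues bears on the pattern. For S4, 2 copies were compared and 1 without its own row in all libraries was left out. Between the 2 copies, both measures gave leaf blade the most even division. LOC_Os01g25610 held 63.5% of their FPKM in node, 61.8% in stem and 49.2% in leaf blade, and 65.3%, 63.7% and 51.2% of their fragments. Its own level was 156 FPKM in node, 144 in stem and 102 in leaf blade. L7 was likewise alike in both measures for its leading copy LOC_Os08g13690, which was highest in stem. It held 51.7% of FPKM in node, 60.8% in stem and 49.7% in leaf blade, and 59.9%, 69.9% and 53.0% of fragments. The L7 copy LOC_Os08g42920 turned round, with 11.3%, 12.3% and 7.05% of FPKM but 3.25%, 3.42% and 7.16% of fragments.

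In L29, L39, S29 and S27 the 2 measures disagreed. By FPKM the L29 copy LOC_Os01g19840 held 70.0% in node, 59.6% in stem and 48.8% in leaf blade, but of the fragments it held 45.5%, 54.8% and 48.7%. For L39 the copy LOC_Os06g08320 held 65.4% of FPKM in node, 61.6% in stem and 47.6% in leaf blade, and 68.1%, 53.7% and 68.9% of fragments. In S29 the copy LOC_Os12g32380 held 45.8%, 44.3% and 37.5% of FPKM, and 17.7%, 39.7% and 31.7% of fragments. The leading copy by FPKM was another one in leaf blade than in node and stem in each of these 3 proteins, a change that the fragments do not show in the same way.

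S27 had the largest shift by FPKM, and it turned round in the fragments. LOC_Os04g27860 held 42.7% of FPKM in node, 40.4% in stem and 14.5% in leaf blade, but 5.30%, 8.07% and 26.6% of fragments. The sum of the S27 copies was 1374 FPKM in node, 1622 in stem and 1285 in leaf blade. LOC_Os04g32710 had 415 FPKM in node, 618 in stem and 610.2 in leaf blade, and LOC_Os02g27769 had 373, 349 and 489 FPKM. For S15 the copy LOC_Os03g58430 held 47.1% of FPKM in node, 35.5% in stem and 49.3% in leaf blade, and 32.7%, 31.3% and 43.4% of fragments, so leaf blade was above stem in both measures, while node lay nearer leaf blade by FPKM and nearer stem by fragments. What sets the 2 measures apart was not tested.

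**Figure D4:**
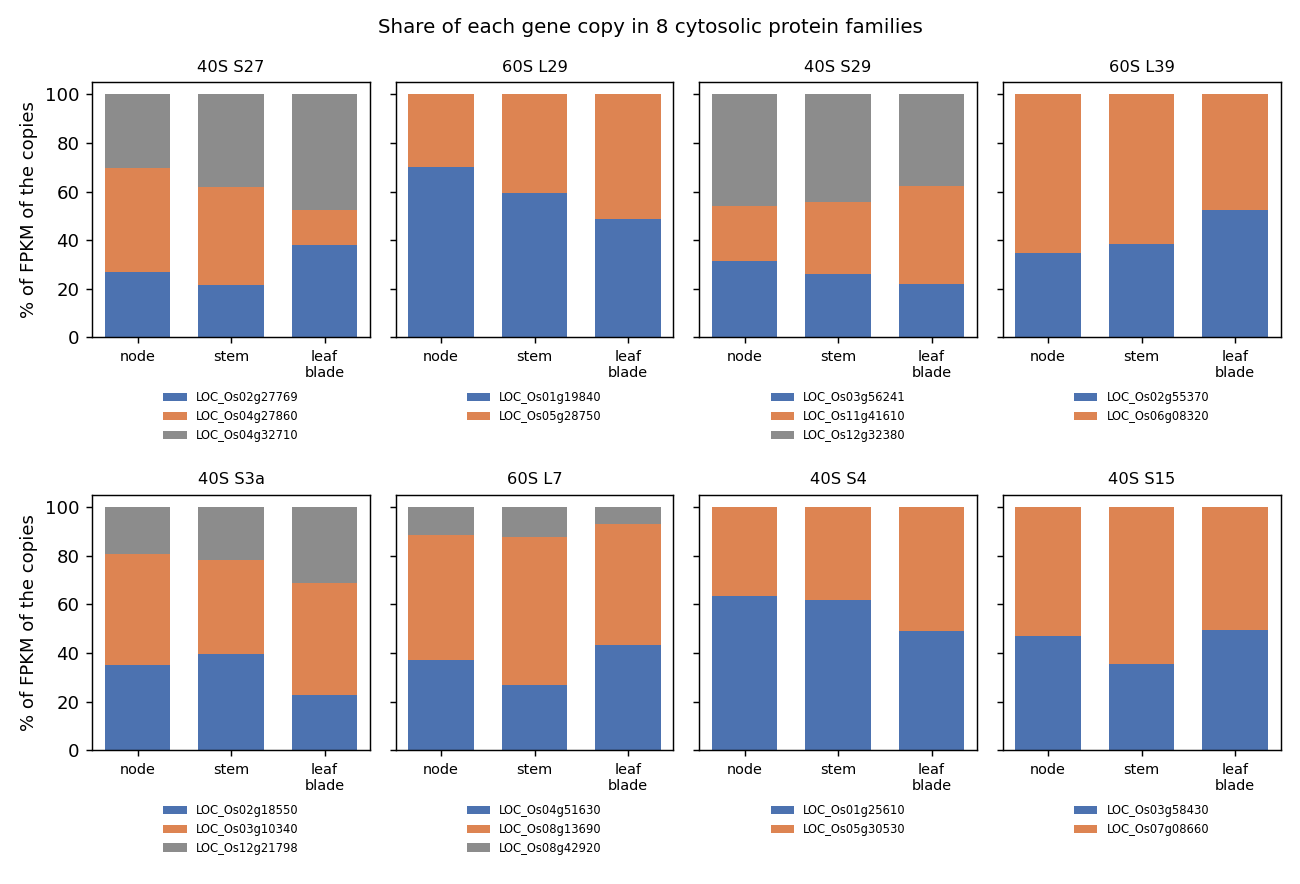
Share of each gene copy in the FPKM of its protein, in percent, for the 8 cytosolic proteins whose shares differed most between tissues; each bar is 1 library and each colour 1 copy. In S4, where 1 further copy is left out, LOC_Os01g25610 makes up 63.5% of the bar in node, 61.8% in stem and 49.2% in leaf blade. In S27, L29, S29 and L39, and for the L7 copy LOC_Os08g42920, shares of implied fragments gave other patterns.

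The organellar genes differed more from gene to gene. For the 19 other organellar genes the median log2 difference was -0.53 in node versus leaf blade, -0.23 in stem versus leaf blade and -0.53 for node versus stem. The cytosolic median was above theirs by 0.44 and 0.72 log2 units where node was compared, and differed by -0.05 in stem versus leaf blade. Leaving out the plain chloroplast loci was chosen after the data were seen. Over all 32 organellar genes compared the medians were -1.37, -0.57 and -0.61, and the cytosolic excess was 1.27, 0.29 and 0.80, given as a description. Of the 13 plain loci among them all 13 reached 1 FPKM in leaf blade, but 3 did in node and 7 in stem, and 6 passed the limit through leaf blade alone and so had to be higher there. Without a limit, over 50 organellar genes, the medians were -0.68, -0.35 and -0.27 and the excess was 0.60, 0.10 and 0.45.

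None of the 19 other organellar genes was 2-fold higher in any comparison. In node versus leaf blade 9 were 2-fold lower and 3 of these 4-fold lower, with 17.1% and 7.29% of all genes past these limits. In stem versus leaf blade 2 were 2-fold lower and 0 were 4-fold lower, with 18.0% and 6.52% of all genes. In node versus stem 9 were 2-fold lower and 1 was 4-fold lower, with 8.99% and 2.30% of all genes. The gene past 4-fold in node versus stem, S31 (LOC_Os05g09400), stood at -2.18 by FPKM and -0.63 by shares of implied fragments, past neither limit. Including the plain chloroplast loci, 22, 8 and 12 of the 32 were 2-fold lower; by shares of implied fragments the first 2 counts were 13 and 4. Chlorophyll a/b-binding protein genes, as markers of green tissue, were 2-fold lower in 14 of 14 cases in node versus leaf blade, 12 in stem versus leaf blade and 11 for node versus stem. Their medians were -3.42, -1.75 and -1.82, and their part in the organellar differences was not tested.

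The 19 genes divided into those with a low node level and those without. By FPKM the same 9 genes were 2-fold or more lower in node than in stem and than in leaf blade, with differences between -3.11 and -1.17 from leaf blade and between -2.18 and -1.02 from stem. By shares of implied fragments with nothing added, 9 of the 9 were 2-fold lower than in leaf blade and 8 were 2-fold lower than in stem, all but S31. The other 10 lay between -0.53 and 0.72 from leaf blade and between -0.53 and 0.62 from stem. No gene lay between -1.17 and -0.53 from leaf blade, or between -1.02 and -0.53 from stem. Of the 9 genes, 6 are described as chloroplast precursor or plastid-specific and 3 state no organelle. Of the 10 genes, 3 are so described and 7 state none. The order of the 19 genes by level was less alike between node and leaf blade (Spearman coefficient 0.40) and between node and stem (0.52) than between stem and leaf blade (0.84), as a description across genes.

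The plastid-specific proteins, which have no counterpart in the ribosome of Escherichia coli, were all in the low-node group. PSRP5 of the 50S subunit (LOC_Os01g17150, chromosome 1, 9859350 to 9860764) had 8.81 FPKM in node (interval 7.53 to 10.1), 31.8 in stem (29.5 to 34.1) and 83.7 in leaf blade (79.9 to 87.5). PSRP6 (LOC_Os11g34940, chromosome 11, 20478176 to 20478870) had 18.2 FPKM in node (16.3 to 20.1), 61.4 in stem (58.1 to 64.6) and 147.7 in leaf blade (142.6 to 152.8). Both were ordered node, stem, leaf blade with intervals that do not overlap. Their log2 differences in node versus leaf blade were -3.11 ± 0.11 and -2.95 ± 0.08 (± counting error only). PSRP3 of the 30S subunit (LOC_Os04g38750, chromosome 4, 23027319 to 23029083) had 27.5 FPKM in node, 90.3 in stem and 100.3 in leaf blade, so that stem was close to leaf blade at -0.15.

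Of the other low-node genes, L31 was the most abundant organellar gene compared. L31, which bridges the subunits in bacterial ribosomes (LOC_Os01g44210, chromosome 1, 25350614 to 25351550), had 67.4 FPKM in node (64.3 to 70.6), 249 in stem (243 to 255) and 240.3 in leaf blade (235 to 246). L17, which lies near the exit tunnel in bacteria (LOC_Os03g60100, chromosome 3, 34174773 to 34176702), had 11.3 FPKM in node (10.2 to 12.4), 48.1 in stem (45.8 to 50.3) and 47.3 in leaf blade (45.0 to 49.6). In both genes the stem and leaf blade intervals overlap and the node interval lies below them. A 50S gene without a protein number (LOC_Os01g59060) had 10.6 FPKM in node, 35.8 in stem and 56.7 in leaf blade, at -2.32 ± 0.10 in node versus leaf blade.

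Precursors L21 and L19 of the 50S subunit completed the low-node group and are named because they belong to it, after their values were seen. L21 (LOC_Os02g15900) had 19.0 FPKM in node, 43.3 in stem and 44.0 in leaf blade, and L19 (LOC_Os02g43600) had 7.30, 15.8 and 25.7 FPKM. S31, a precursor of the 30S subunit (LOC_Os05g09400, chromosome 5, 5274199 to 5277765), had 7.12 FPKM in node, 35.8 in stem and 21.6 in leaf blade. It was thus highest in stem by FPKM, but its implied fragments numbered 339 in node, 567 in stem and 1085 in leaf blade, which leaves the node to stem difference and the order of stem and leaf blade uncertain.

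Genes of the other group showed that a low node level was not general among organellar ribosomal proteins. S16, which takes part in assembly of the small subunit in bacteria (LOC_Os08g40610, chromosome 8, 25702617 to 25704363), had 46.6 FPKM in node (43.8 to 49.4), 29.9 in stem (27.8 to 32.0) and 27.8 in leaf blade (25.7 to 29.9). Node was the highest, at 0.72 from leaf blade and 0.62 from stem. L20, an assembly protein of the large subunit in bacteria, had 2 such genes: LOC_Os01g53280 with 15.1 FPKM in node, 13.2 in stem and 12.2 in leaf blade, and LOC_Os05g45220 with 49.4, 71.8 and 45.7 FPKM. L33 (LOC_Os05g37884) had 30.7 FPKM in node, 20.1 in stem and 32.7 in leaf blade.

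Genes with the same protein name fell on both sides. The low-node L17 gene states no organelle, so a shared name does not place genes in the same ribosome. Besides the low-node L17 gene, a second L17 gene (LOC_Os01g62210) had 51.6 FPKM in node, 47.8 in stem and 75.1 in leaf blade, and another (LOC_Os05g38580) had 6.23, 5.48 and 8.10 FPKM. For L19 a second gene (LOC_Os02g11030) had 33.0 FPKM in node, 38.4 in stem and 37.5 in leaf blade, and for L21 a second gene (LOC_Os05g48410) had 27.9, 27.4 and 39.3 FPKM. The last 3 genes are named after their values were seen, to complete these proteins. In L17, L19 and L21 alike, then, 1 gene had a node level 2-fold or more below both other tissues and the rest did not. L15 (LOC_Os08g21840) and L10 (LOC_Os05g03030), the 2 genes not yet described, had 15.5 FPKM in node, 14.6 in stem and 19.0 in leaf blade, and 32.6, 37.9 and 44.7 FPKM.

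**Figure D5:**
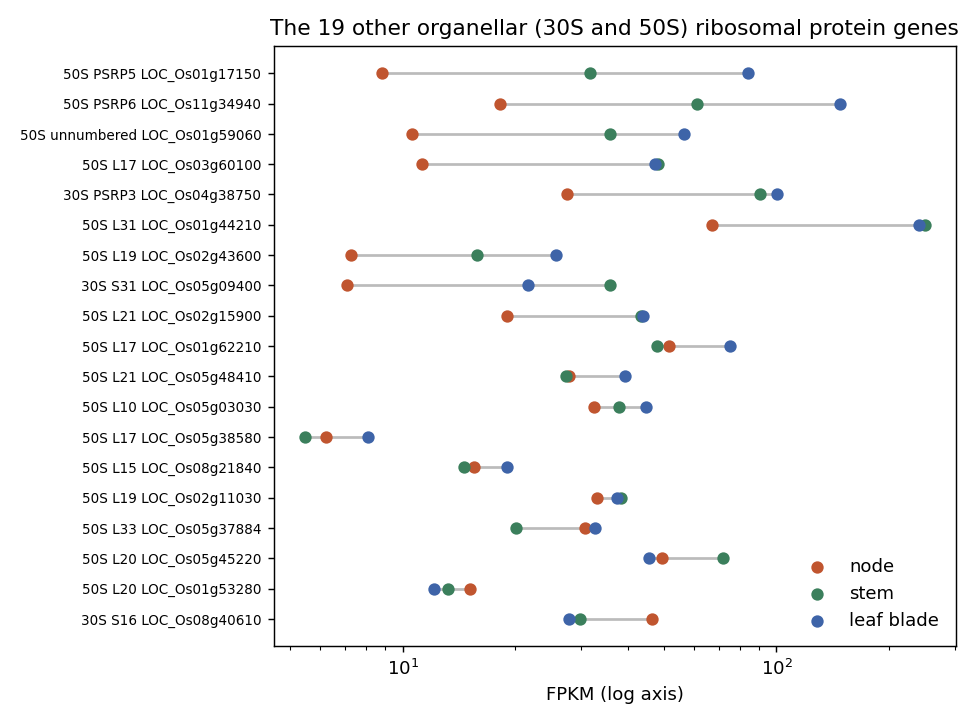
FPKM (log axis) of the 19 other organellar genes in node, stem and leaf blade, 1 point per library, sorted by the difference of node from leaf blade with the most negative on top. In the upper 9 rows the node point stands far to the left of both others, and in the lower 10 the points lie close together.

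The plain chloroplast loci were near the limit of detection. Of the 56, 30 had a row in all 3 libraries, and their median was 0.0380 FPKM in node, 0.250 in stem and 0.705 in leaf blade. Leaf blade was the highest tissue for 26 of the 30, stem for 1, and 3 are listed at 0 throughout. In node 15 of the 30 had a value above 0 that amounts to under 1 implied fragment, so the listed level rests on less than a whole fragment. L14 loci at 3 places (LOC_Os05g22722, LOC_Os08g15276 and LOC_Os10g21342) list the same 0.0357 FPKM in node and the same 0.250 in stem. Whether fragments were divided among such loci was not tested.

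Of these 30, 3 reached 10 FPKM in leaf blade, all on chromosome 10. S16 (LOC_Os10g21196) had 3.83 FPKM in node, 16.3 in stem and 40.5 in leaf blade, S14 (LOC_Os10g21244) had 1.65, 2.43 and 14.5 FPKM, and S19 (LOC_Os10g21352) had 1.25, 6.32 and 10.6 FPKM. The S16 locus was covered by 124 implied fragments in node, 353 in stem and 2911 in leaf blade, and S14 by 4.05, 8.07 and 49.4. These 3 were picked by their leaf blade level, so leaf blade being the highest follows in part from that choice. Node was the lowest in each by FPKM, but for S14 its log2 difference from stem was -0.37 with a counting error of 0.88. Chloroplast transcripts read at nuclear copies of the same sequence and transcripts of the nuclear loci cannot be told apart in these tables.

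By position the plain loci were grouped. On chromosome 4, 17 of the 56 lay between 9090826 and 9199574, on chromosome 10 a group of 13 lay between 10811610 and 10895507, and on chromosome 8 a group of 9 lay between 9254993 and 9278198. The leaf blade table holds no row between 9089492 and 9210412 of chromosome 4, a stretch of 120.9 kb where node and stem have 44 rows each, so those 17 loci were not analysed in leaf blade here. Cytosolic genes were spread over the chromosomes, with 9 pairs of neighbours less than 20 kb apart among the 116 by the rule. In 3 of these pairs both genes were compared. In 6 of the 9 the neighbours had the same protein name, and the others joined S15a to S27 on chromosome 2, L35a to L37a on chromosome 5 and S28 to S17 on chromosome 10.

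Other genes of the translation machinery were counted in the same way for comparison. Acidic stalk proteins, which recruit translation factors to the 60S subunit and whose descriptions lie outside the rule, had a median of 0.24 over 9 genes in node versus leaf blade, -0.29 in stem versus leaf blade and 0.49 for node versus stem. Of these 9, 2 were 2-fold higher in node versus leaf blade, among them a P0 copy (LOC_Os11g04070) with 16.4 FPKM in node, 24.3 in stem and 4.42 in leaf blade. The 126 other ribosomal proteins, described without a subunit, had medians of -0.09, -0.18 and 0.02, and 5, 7 and 1 were 2-fold higher while 25, 11 and 18 were lower. Over all genes 26.5%, 16.7% and 19.4% were higher and 17.1%, 18.0% and 8.99% lower, so the lower counts in node versus leaf blade are near the general share. The set is not separated by compartment, so its lower genes cannot be assigned to either ribosome here.

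Factors that work with the ribosome were counted as well. The 39 translation initiation factors had medians of 0.07 in node versus leaf blade, -0.10 in stem versus leaf blade and 0.03 for node versus stem, with 2, 4 and 2 genes 2-fold higher and 4, 4 and 3 lower. The 34 ribosome assembly genes had medians of -0.03, -0.14 and -0.02, with 3, 6 and 1 higher and 4, 3 and 3 lower. The 22 elongation factors had medians of -0.03, 0.12 and -0.18, with 1 gene higher in each comparison and 3, 2 and 5 lower. The 59 aminoacyl-tRNA synthetase genes, which load amino acids onto tRNA, had medians of -0.12, -0.18 and -0.06, with 2, 3 and 1 higher and 11, 9 and 1 lower. Core histone genes, as markers of dividing cells, had medians of 0.57, 0.05 and 0.27 over 30 genes, with 11, 5 and 8 higher and 3, 3 and 1 lower. Of all genes, 26.5%, 16.7% and 19.4% were higher and 17.1%, 18.0% and 8.99% lower in the 3 comparisons, and several of these counts, such as 11 of 59 and 5 of 30, lie near those shares.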

How the data were processed

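RNA was measured in 3 libraries, 1 each of node, stem and leaf blade, grouped by the labels. Per the file headers, the authors deposited an FPKM value for each gene, its interval bounds, a locus and a description. The submitters' processing notes name TopHat without a version. The quantifier, genome build, annotation and strand setting are not given in the sources used here. Locus starts were read as counting from 0, and 1 was added, because 42.5% of locus lengths are then a multiple of 3. This convention is inferred.

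Rows with several identifiers carry no description and were left out. Differences are log2 ratios of FPKM + 1 over genes that reach 1 FPKM in some tissue; the pseudocount understates differences of low genes. Genes past 2-fold or 4-fold were counted, without a test. Implied fragments are the square of 2 × FPKM over the distance to the upper bound, which reads the interval as counting error alone. They were whole within 0.02 for 49.2% of rows under 200 fragments in node, 49.7% in stem and 49.2% in leaf blade, so no count model was run. Errors given as ± cover counting error only, and rest on that reading of the deposited intervals. The calculation was tested on simulated independent counts with 4-fold changes, in genes of 5 FPKM or more in leaf blade. That setting does not cover low loci or fragments shared among near-identical copies.

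Genes were named by a rule: the 3 highest and 3 lowest differences per subunit and comparison at 10 FPKM or more, the 4 most abundant per subunit, the copies of the 8 proteins whose copy shares differed most, and fixed role names. Members and gene lists were chosen with earlier results of these data known. Of 195 identifiers, 0 matched the RefSeq gene table, so no sequence is shown. Alternatives varied the pseudocount, the filter, the scaling, the treatment of copies, overlapping loci and merged rows. Python 3.11.15, pandas 2.3.3, numpy 2.4.6, scipy 1.17.1 and matplotlib 3.10.9 were used.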

Additional observations from a re-analysis of the deposited data

Results flagged for a closer look

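Signal from ribosomal protein genes also lies in rows that the comparisons leave out, those where several neighbouring identifiers are merged. Rows that hold at least 1 member's identifier numbered 9 in node, 12 in stem and 13 in leaf blade, and summed to 1999 FPKM in node, 1962 in stem and 2654 in leaf blade. Cytosolic members' rows made up 1967, 1899 and 2540 FPKM of this, and organellar members' rows 31.8, 62.9 and 114.7 FPKM. Each row may also hold fragments of the neighbour it is merged with, so these sums are upper values for the members.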

How the results depend on the processing

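No paired analysis was possible because each tissue has 1 library and the labels carry no replicate numbers. Across the alternatives, 37 summary values moved beyond their interval or by over 1.5 times and 176 did not. For sums that interval was counting error. For medians it came from the ranked values of the genes, as if genes were independent, so it is no replicate spread. The intervals of the organellar medians are wide, such as -1.97 to -0.53 in node versus leaf blade. Some values within them differ a lot, so the 176 do not measure stability. Without a filter the organellar median in node versus leaf blade was -0.68 and the cytosolic excess 0.60, 0.10 and 0.45 in the 3 comparisons. With a filter at 5 FPKM these were -1.68 and 1.59, 0.21 and 1.12. With a pseudocount of 0.1 the organellar median in node versus leaf blade was -2.08, 20 organellar genes were 2-fold lower in node versus stem, and the cytosolic excess there was 1.56. With a pseudocount of 5, 14 organellar genes were lower in node versus leaf blade and 4 in stem versus leaf blade, the organellar median in node versus leaf blade was -0.55, and the excess was 0.46, 0.015 and 0.40 in the 3 comparisons.

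Rescaling without the 50 most abundant genes put the median of all genes at 0.02 in node versus leaf blade, against 0.13, and the cytosolic median at -0.22. Rescaling that median to 0 put the cytosolic median at -0.22 in node versus leaf blade, and at 0.028 for node against stem, with 1 gene higher in node versus stem.

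Shares of implied fragments gave a cytosolic median of -0.18 in node versus leaf blade, with 0 genes higher and 10 lower, 13 organellar genes lower, an organellar median of -0.55 and an excess of 0.37; the excess was -0.0093 for stem versus leaf blade and 0.34 for node versus stem. They gave 4 organellar genes lower in stem versus leaf blade and 2 cytosolic genes lower in node versus stem. They turned the direction of S27 (LOC_Os04g27860) to -2.90 in node versus leaf blade and -2.33 in stem versus leaf blade, of S17 (LOC_Os10g27190) to -1.06 in node versus leaf blade (-0.87 from stem), and of S3a (LOC_Os12g21798) to 0.18 in stem versus leaf blade. The cause was not tested.

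With copies summed by protein, 1 cytosolic protein was higher and 0 lower in node versus leaf blade, 1 higher and 1 lower in stem versus leaf blade, and 1 higher in node versus stem, while 14 organellar ones were lower in node versus leaf blade. Without loci that overlap another row, 1 cytosolic gene was lower in node versus leaf blade, 1 higher and 3 lower in stem versus leaf blade, and 1 higher and 0 lower in node versus stem. Without plain chloroplast loci, chosen after seeing the data, 9 organellar genes were lower in node versus leaf blade and 2 in stem versus leaf blade, with an excess of 0.44 in node versus leaf blade. Adding merged rows, matched by identifier after seeing that they carry no description, gave cytosolic sums of 33984, 28945 and 36646 FPKM and organellar sums of 527, 1019 and 1321 FPKM in node, stem and leaf blade. Depth limits mainly the plain chloroplast loci, of which 29 of 30 had under 10 implied fragments in node.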
